A study of Mus musculus with 34 samples.

Results

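The 41 genes described here are the extracellular matrix proteases of the Mmp class (18 genes), those of the Adamts class (19 genes) and their inhibitors of the Timp class (4 genes), chosen by gene symbol from the 51826 genes of the count tables. All 41 were found. They were followed in 34 libraries of polyadenylated mouse RNA, made to compare stromal cells between the tissues they live in. Fibroblasts, sorted as CD45-CD31-Epcam- cells that carry podoplanin and PDGFRA, came from 9 tissues: the visceral fats of omentum, mesentery and epididymis, the inguinal and brown fat depots, which the labels call subcutaneous, and bone, lymph node (labelled sLN), spleen and pancreas. The PDGFRA-negative cells of the same gate are the mesothelium, the lining of the cavities and their organs, and were taken from the 3 visceral fats. There were 3 libraries per group, but only 2 of spleen and 2 of pancreas fibroblasts. Every library carries the label GFPneg, and the labels give no strain, age, treatment or genotype. Whether replicate libraries stem from different mice is not stated, so all p-values below measure the spread between these libraries, which may be technical. Total counts ran from 28.7 M to 42.3 M reads per library.

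Matrix metalloproteinases (MMPs) are zinc enzymes that are made as inactive proforms and cut collagens, proteoglycans and growth factor reservoirs outside the cell. Collagenases such as MMP13 and MMP8 open the collagen triple helix, gelatinases (MMP2 and MMP9) digest the unwound chains, stromelysins (MMP3 and MMP10) cut a broad range of matrix proteins and can activate other proenzymes, and membrane-type enzymes such as MMP14 and MMP16 act at the cell surface. ADAMTS enzymes carry thrombospondin repeats. ADAMTS1, ADAMTS4, ADAMTS5, ADAMTS8, ADAMTS9 and ADAMTS15 cleave aggrecan or versican, ADAMTS2, ADAMTS3 and ADAMTS14 remove the amino-terminal propeptide of procollagens, and ADAMTS13 cuts von Willebrand factor. TIMPs bind the active site of these enzymes, and TIMP3 stays bound to the matrix. Fibroblasts are regarded as a main source of these proteins in connective tissue.

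Several Mmp genes lie side by side on chromosome 9, where Mmp13, Mmp12, Mmp3, Mmp10, Mmp8 and Mmp7 span 427.1 kb, with 46.4 kb between Mmp3 and Mmp10. These neighbours had very different levels in the same cells, so the 250 bases upstream of 5 of them are shown. The sequences are from RefSeq on build GRCm38.p6, all on the plus strand, 5′ to 3′, at chr9:7272264-7272513 for Mmp13, chr9:7347124-7347373 for Mmp12 (the downstream of its 2 annotated starts), chr9:7445572-7445821 for Mmp3, chr9:7502092-7502341 for Mmp10 and chr9:7558179-7558428 for Mmp8. Capitals mark TGANTCA, the letters of an AP-1 element, or TGTGGT (here as its reverse complement ACCACA), the core letters of a Runx element.
Mmp13: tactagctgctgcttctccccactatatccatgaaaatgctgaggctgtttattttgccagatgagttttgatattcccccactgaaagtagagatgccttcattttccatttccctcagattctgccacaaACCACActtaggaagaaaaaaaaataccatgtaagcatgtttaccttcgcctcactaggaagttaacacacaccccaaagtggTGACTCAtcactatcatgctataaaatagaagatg
Mmp12: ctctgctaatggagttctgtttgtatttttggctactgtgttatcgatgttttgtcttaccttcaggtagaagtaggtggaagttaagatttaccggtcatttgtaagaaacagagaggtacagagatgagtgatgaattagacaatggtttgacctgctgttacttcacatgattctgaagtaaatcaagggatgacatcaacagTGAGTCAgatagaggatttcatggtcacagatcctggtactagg
Mmp3: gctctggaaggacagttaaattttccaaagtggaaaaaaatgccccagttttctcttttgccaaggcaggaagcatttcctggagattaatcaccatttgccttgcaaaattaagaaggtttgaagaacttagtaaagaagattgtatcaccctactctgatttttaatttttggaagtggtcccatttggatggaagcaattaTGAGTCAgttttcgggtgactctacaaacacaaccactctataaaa
Mmp10: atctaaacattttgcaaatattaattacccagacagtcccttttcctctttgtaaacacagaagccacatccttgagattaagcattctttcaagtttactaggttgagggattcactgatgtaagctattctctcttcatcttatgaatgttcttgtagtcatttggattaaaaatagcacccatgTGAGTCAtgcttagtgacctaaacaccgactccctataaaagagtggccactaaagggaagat
Mmp8: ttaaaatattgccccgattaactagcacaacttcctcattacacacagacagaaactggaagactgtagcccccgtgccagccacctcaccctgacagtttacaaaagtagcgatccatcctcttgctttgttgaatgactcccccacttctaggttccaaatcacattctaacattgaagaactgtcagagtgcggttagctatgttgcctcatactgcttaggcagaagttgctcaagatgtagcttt
Both strands were searched, and the marked matches do not overlap each other. Of the 41 genes, 27 had a promoter entry. These 27 genes had 30 windows, and a gene was counted if any of its windows held a match. TGANTCA occurred in 5 of the 27 genes, namely Mmp13, Mmp12, Mmp3, Mmp10 and Mmp7. Mmp12 and Mmp7 have a further window without it, and that of Mmp12, chr9:7344147-7344396, holds no TGTGGT either. Counted by window rather than by gene, TGANTCA occurred in 6.75% of all 32851 promoter windows. Its first base lay 35 bases upstream of the Mmp13 start, 46 bases upstream for Mmp3 and 63 for Mmp10. TGTGGT occurred in 4 of 27 genes, namely Mmp13, Mmp23, Mmp7 and Mmp14, and, counted by window, in 14.0% of all windows. Mmp23 and Mmp7 have a further window without it. The window of Mmp8 holds neither. These are letter matches, and binding was not measured. Mmp2, Mmp9, Mmp16, Mmp17, Mmp19, Adamts4, Adamts5, Adamts6, Adamts7, Adamts8, Adamts10, Adamts15, Adamts16 and Adamts19 had no entry.

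The positive markers of the sort gate followed the labels. Pdgfra averaged 394 to 1194 CPM (counts per M of library total) in the fibroblast groups and 6.61 to 11.7 CPM in the mesothelial groups, and Pdpn was present in all 12 groups. Library totals were scaled by edgeR's TMM method for single genes and left unscaled for marker sums. A gene and a sum are therefore not strictly on the same scale. RNA of cell types gated against was not absent. The 12 leukocyte markers, Ptprc among them, summed to up to 1768 CPM in a mesentery mesothelial library. The 10 endothelial markers, Pecam1 among them, summed to up to 517 CPM in an epididymal fibroblast library. Summed over 14 mesothelial markers, mesothelial libraries held 12321 to 18091 CPM and fibroblast libraries at most 1147 CPM, the highest in omentum. In bone fibroblasts 9 osteoblast markers summed to 29731 to 41183 CPM (Bglap alone averaged 14788 CPM), 12 chondrocyte markers to 3975 to 5452 CPM and 11 neutrophil markers to 163 to 549 CPM. Lymph node fibroblasts held 1771 to 2446 CPM of 10 mural cell markers and 432 to 890.5 CPM of 12 leukocyte markers. Pancreatic acinar transcripts reached at least 1000 CPM in 11 libraries, among them all 3 of omentum fibroblasts (1309.5 to 4553 CPM) and both of pancreas fibroblasts (46147 and 164323 CPM). In bulk RNA, fewer cells of a type and less RNA per cell cannot be told apart.

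The genes ran over several orders of magnitude. CPM values were taken on library totals scaled by edgeR's TMM method. In at least 1 group, 16 of the 41 genes reached 100 CPM and 27 reached 10 CPM, while Mmp7 and Mmp25 stayed under 1 CPM in every group. Mmp7, the matrilysin of epithelia, was read in 5 of 34 libraries and was the only member too low to test. Of the 41 genes, 35 had their highest group mean in fibroblasts, 10 of these in bone, 7 in epididymal fat and 5 in inguinal fat, and 6 had it in mesothelial cells. Fibroblasts made up 9 of the 12 groups, and the same counts over all genes were not made. They are therefore not read as particular to the 41 genes. Between genes, levels are compared as CPM per kb of exon. On that scale Mmp3 led (354 CPM per kb on average over the 12 groups), followed by Mmp2 (215), Timp2 (139.7) and Timp3 (129.6). The next were Mmp23 (58.1), Mmp13 (57.2), Adamts1 (52.6) and Timp1 (51.6).

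**Figure D1:**
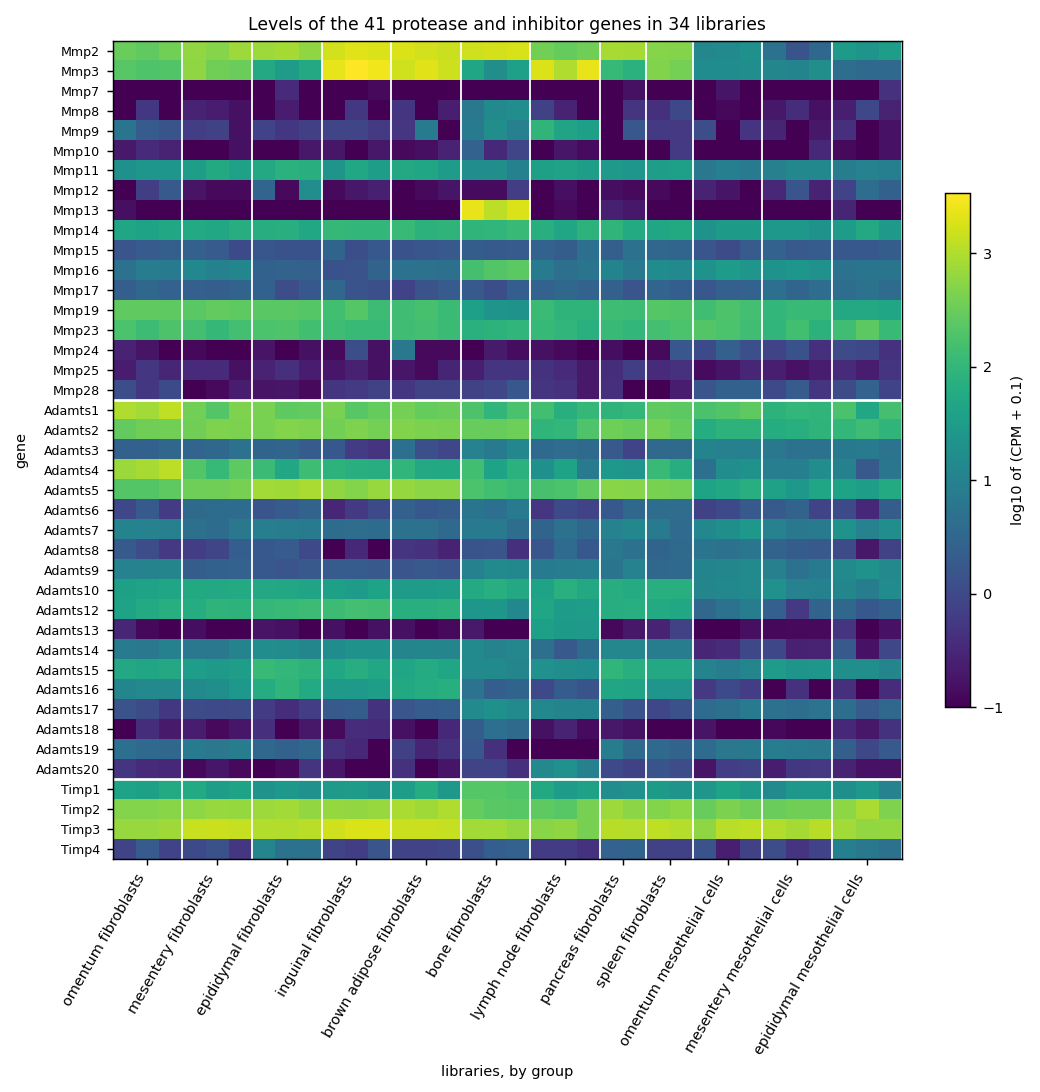
Level of each of the 41 genes (rows, by class) in each of the 34 libraries (columns, by group), as log10 of CPM + 0.1. Timp2, Timp3 and Mmp23 are high in all columns, Mmp13 is bright in the 3 bone columns, and Mmp2, Mmp3 and several Adamts genes are darker in the 9 mesothelial columns.

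Summed per kb of exon, the Mmp genes of inguinal fibroblasts reached 2259.6 CPM per kb (1921 to 2654 over 3 libraries), of which Mmp3 made up 69.7%. Brown adipose fibroblasts followed with 1614, bone with 1309 and lymph node with 1208 CPM per kb. Mmp3 again led in brown adipose tissue (60.8%) and lymph node (82.4%), and Mmp13 led in bone (52.4%). The 3 mesothelial groups summed to between 98 and 145 CPM per kb, with Mmp23 leading in each. Adamts genes summed to 464 CPM per kb in omentum fibroblasts (405 to 574), where Adamts4 made up 41.9%, and to 249 or less in every other group. Timp genes varied least between groups, from 187 CPM per kb in lymph node fibroblasts to 453 in brown adipose fibroblasts.

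**Figure D2:**
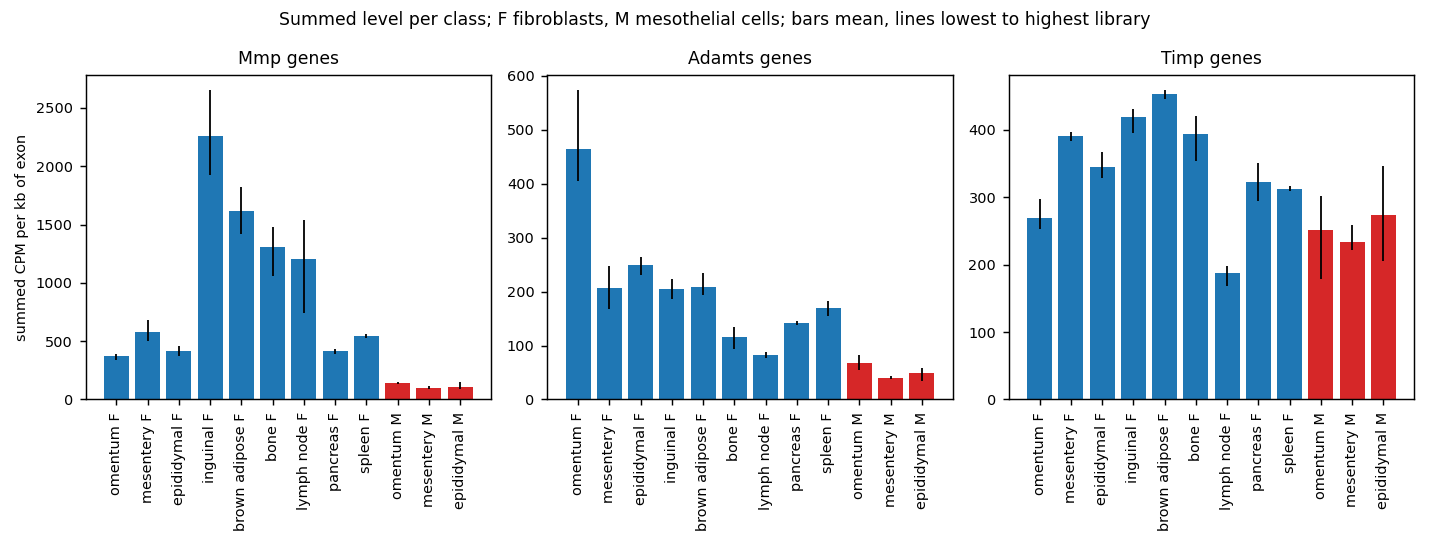
Summed CPM per kb of exon for the Mmp, Adamts and Timp genes in each group. Bars are means of 3 libraries (2 for pancreas and spleen) and lines run from the lowest to the highest library; F marks fibroblasts and M mesothelial cells. Inguinal fibroblasts lead for Mmp genes (2259.6) and omentum fibroblasts for Adamts genes (464).

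The comparison of mesothelial cells with fibroblasts asks which proteases set apart these neighbouring populations of the same depot. Mesothelial cells held less RNA of most secreted matrix proteases that differed, and no inhibitor was called over the mean of depots. Averaged over the 3 depots, 20 of the 40 genes tested differed in edgeR's quasi-likelihood test (Benjamini-Hochberg adjusted p under 0.05 and log2 fold change of at least 1 in size), where 21.4% of all 25705 genes tested did. Of these, 6 were higher in mesothelial cells and 14 lower, against 12.3% of all genes higher and 9.08% lower. The Mmp class gave 3 higher and 5 lower of 17, the Adamts class 3 higher and 9 lower of 19, and no Timp gene passed. The median log2 fold change was -0.51 for the 40 genes and 0.11 for all genes.

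Mmp2, the gelatinase of connective tissue (chr8:92827291-92853420, plus strand), had the smallest adjusted p. It stood at 311, 269.8 and 377 CPM in omentum fibroblasts and at 12.5, 13.8 and 18.5 CPM in omentum mesothelial cells. Mesentery fibroblasts had 635, 517 and 732 CPM and mesentery mesothelial cells 5.01, 1.42 and 3.25 CPM. In epididymal fat the values were 731, 831 and 611 CPM against 29.2, 22.2 and 32.7 CPM. Fibroblast and mesothelial libraries did not overlap, and the log2 fold change was -5.56 ± 0.16 (SE; edgeR adjusted p = 1.07e-23). Mmp3, stromelysin-1, had 53.3, 30.9 and 53.5 CPM in epididymal fibroblasts, the lowest of the 3 depots, and 3.4 to 17.3 CPM over all 9 mesothelial libraries (-4.1 ± 0.19, edgeR adjusted p = 1.13e-17). Mmp11, stromelysin-3, went the same way, with 19 to 78.7 CPM in the 9 fibroblast libraries and 6.52 to 12.8 CPM in the mesothelial ones.

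Of the 19 Adamts genes, 9 were called lower in mesothelial cells. Adamts5, the main aggrecanase of mouse cartilage, had 208 to 908 CPM in the fibroblasts of the 3 depots and 26.1 to 72.7 CPM in mesothelial cells (-3.17 ± 0.14, edgeR adjusted p = 2.48e-19). Adamts16 had 11.8 to 92 CPM in these fibroblasts and no more than 0.964 CPM in any mesothelial library (-6.72 ± 0.29, edgeR adjusted p = 1.8e-19). Adamts12 had 43 to 126 CPM against 0.474 to 8.24 CPM (-4.77 ± 0.21, edgeR adjusted p = 2.71e-18). Of the procollagen N-proteinases, Adamts2 had 281 to 483 CPM against 64.5 to 135 CPM (-2.2 ± 0.12, edgeR adjusted p = 1.68e-16) and Adamts14 was also lower (-4.05 ± 0.29), whereas Adamts3, the remaining enzyme of that group, was higher (1.25 ± 0.23, edgeR adjusted p = 2.67e-05). Adamts3 reached 4.81 to 10.8 CPM in mesothelial cells and 2.01 to 4.92 CPM in the fibroblasts, ranges that overlap. In each of the 3 depots taken alone, the same 11 genes were called lower: Mmp2, Mmp3, Mmp11, Adamts1, Adamts2, Adamts4, Adamts5, Adamts10, Adamts12, Adamts14 and Adamts16. Of all genes tested, 8.79% were called lower in omentum, 7.53% in mesentery and 8.16% in epididymal fat. The share called lower in all 3 depots was not counted over all genes. The call of Adamts1 in epididymal fat (-1.34) was lost without mesothelial replicate 2 (-0.97). Without the 11 libraries rich in acinar transcripts, mesentery keeps 1 mesothelial and 1 fibroblast library, whose spread is then assumed to be that of the other groups, and the values there were -1.28 for Adamts1 and -2.82 for Adamts4, neither of them called.

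The genes that were higher in mesothelial cells were fewer and of lower abundance. Mmp16, a membrane-type enzyme, had 20.2, 30.1 and 22.9 CPM in omentum mesothelial cells against 4.89, 7.9 and 7.67 CPM in omentum fibroblasts, and the 2 groups did not overlap. Over the 3 depots its log2 fold change was 1.29 ± 0.14 (edgeR adjusted p = 1.77e-09). Adamts9, an aggrecanase and versicanase, had 14.6, 20.9 and 13.4 CPM in epididymal mesothelial cells against 1.7, 1.49 and 1.73 CPM in the fibroblasts of that depot. Adamts17, an enzyme linked to fibrillin microfibrils, reached 1.93 to 7.42 CPM in mesothelial cells against 0.297 to 1.37 CPM. Adamts17 and Mmp28, the last with at most 2.6 CPM, were called higher in all 3 depots, a share that was likewise not counted over all genes. The call of Mmp28 in omentum (1.4 ± 0.47) was lost without omentum fibroblast replicate 2 (0.96) or either of mesothelial replicates 2 (1.29) and 3 (1.28). Mmp24, with at most 2.4 CPM in these cells, was called higher over the mean (4.64 ± 0.96) and overlaps an opposite-strand gene over 13.6% of its exon length, which matters because the sources used here do not say whether strand was used in counting.

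In the separate depots, 18 genes were called in omentum, 6 higher and 12 lower, where 16.9% of all genes were called (8.1% higher and 8.79% lower). In mesentery 18 were called, 4 higher and 14 lower, where 18.3% of all genes were (10.8% higher and 7.53% lower). Epididymal fat had 19 calls, 6 of them higher and 13 lower, where 24.7% were (16.6% higher and 8.16% lower). The medians of the 40 genes were -0.96, -0.44 and -0.6 on the log2 scale, beside -0.09, 0.09 and 0.33 for all genes. In omentum 2 genes had no read on a side, and with these set to bounds from 3 counts the median was -0.79. Leaving out single libraries ended some weaker calls. Mmp9 over the mean of depots (-2.33 ± 0.89, edgeR adjusted p = 0.0398) lost its call without any of 13 single libraries, for example without mesentery mesothelial replicate 2 (edgeR adjusted p = 0.0783). Timp1 in mesentery (-1.02) lost it without mesentery mesothelial replicate 1 (-0.88) or mesentery fibroblast replicate 1 (-0.77), and stood at -0.41 with 1 library on each side when those rich in acinar transcripts were left out. Other cell types moved with this comparison: 12 leukocyte markers summed to 57.5 to 1768 CPM in the mesothelial libraries and to 9.34 to 497 CPM in the fibroblasts of the same depots, with 1 of the 12 genes called higher and 2 lower. Of 12 macrophage markers 4 were called higher and none lower, of 5 epithelial markers tested 3 higher and 1 lower, and of 9 osteoblast markers none higher and 4 lower. The calls do not give the lean of a whole list. Over the mean of depots the median log2 fold change was -0.61 for the macrophage markers and -0.48 for the leukocyte markers. It was 1.96 for the epithelial and -2.3 for the osteoblast markers, beside 0.11 for all genes. The part of these cell types in the differences was not tested.

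**Figure D3:**
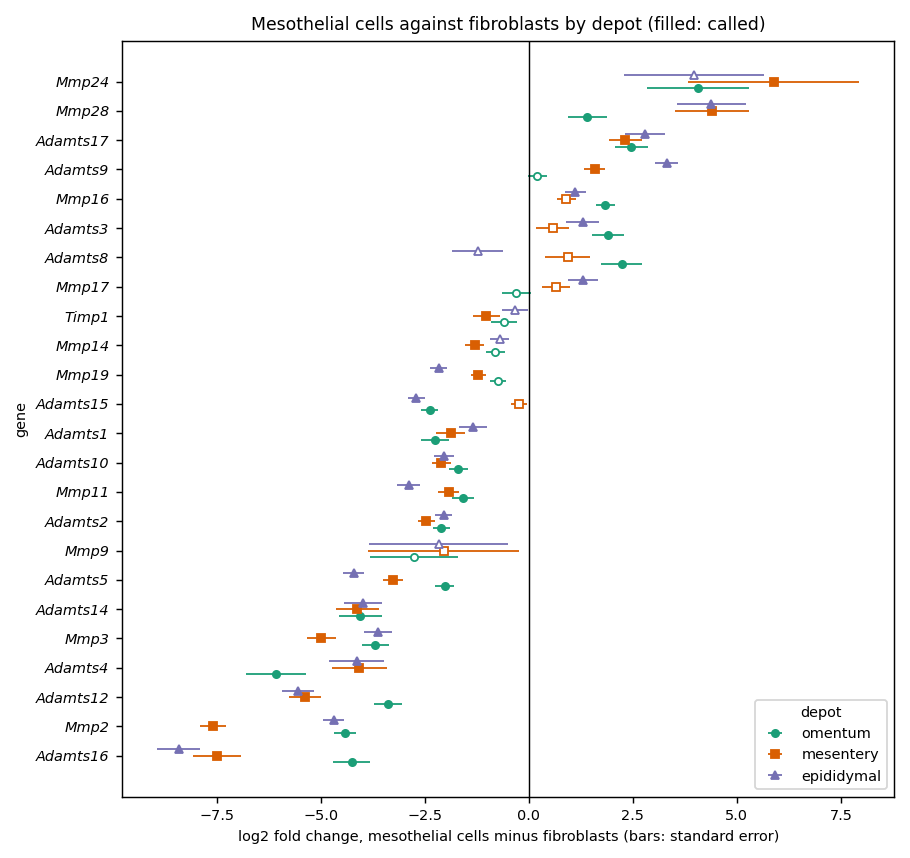
Log2 fold change of mesothelial cells minus fibroblasts (x axis) with its standard error for each gene called in at least 1 depot or over their mean (y axis), by depot; filled symbols passed the test in that depot. Most genes lie left of 0, with Mmp2 and Adamts16 farthest, and the depots spread apart for Adamts9, Adamts15 and Adamts16.

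Genes that act with these enzymes were read from 6 lists. Of 20 genes that activate or control matrix proteases, 2 were higher and 9 lower in mesothelial cells over the mean of depots. Serpine2, an inhibitor of thrombin and plasminogen activators, was lower (-5.05 ± 0.14), as were the proprotein convertase gene Pcsk5 (-3.59 ± 0.11) and Thbs2 (-6.09 ± 0.24), while Plaur, the urokinase receptor, was higher (3.28 ± 0.16, edgeR adjusted p = 1.49e-17). Of 21 other extracellular proteases 5 were higher and 8 lower, among the latter Ctsk (cathepsin K, -4.96 ± 0.12), Adam19 (-6.85 ± 0.21), Adam12 (-7.84 ± 0.31) and Fap (-5.99 ± 0.24). Of 21 matrix substrates 1 was called higher and 11 lower, the latter including Lum (-5.74 ± 0.16), Col4a1 (-4.52 ± 0.16), Nid1 (-3.54 ± 0.13) and Vcan (-2.95 ± 0.11), the last a target of several ADAMTS enzymes. The median over the substrates was -1.48. Of 7 relatives tested outside the 41 genes, 2 were higher and 3 lower, with Adamtsl3 at -5.29 ± 0.19 and Adamtsl2 at -7.28 ± 0.46. Of 11 AP-1 and early response genes 4 were higher and none lower, and of 16 inflammatory inducers of matrix proteases 3 were higher and 5 lower, including Il6 (-3.7 ± 0.31).

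The size of the mesothelial to fibroblast difference depended on the depot for 12 of the 40 genes, where 10.9% of all genes were called in this interaction test. Mmp2 differed most firmly, at -4.42 ± 0.26 in omentum, -7.58 ± 0.31 in mesentery and -4.69 ± 0.26 in epididymal fat (edgeR adjusted p = 4.43e-08). Adamts15, another aggrecanase, was lower in omentum (-2.38 ± 0.2) and epididymal mesothelial cells (-2.7 ± 0.2), and stood at -0.24 ± 0.19 in mesentery. Adamts9 went from 0.2 ± 0.23 in omentum over 1.58 ± 0.26 in mesentery to 3.31 ± 0.27 in epididymal fat. Timp3 was the only Timp gene of the 12, with 0.49 ± 0.19, -0.53 ± 0.19 and -0.64 ± 0.19 in that order, and 21.3% of its exon length overlaps Syn3 on the opposite strand (2.2 CPM on average). Its call went without omentum mesothelial replicate 3 (range 0.93), a group in which Timp3 read 598, 1147 and 1249 CPM.

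Among mesothelial cells alone, 15 of 40 genes differed across the 3 depots, where 12.3% of all genes did. For several of these genes the epididymal mesothelial libraries did not overlap those of the other depots. How many of all genes separate in this way was not counted. Mmp16 had 4.9, 5.6 and 5.74 CPM there and 19.8 to 30.1 CPM in the other 6 libraries, and Mmp19 had 53.6, 54.9 and 46.1 CPM against 100.1 to 182 CPM. Mmp19 shares 22.3% of its exon length with Tmem198b on the opposite strand (60.9 CPM on average). Timp4 had 8.82, 6.49 and 4.74 CPM there and at most 1.34 CPM in the others. Mmp2 was lowest in mesentery, as given above. Omentum differed from mesentery in 6 genes, 5 higher and 1 lower, where 5.15% of all genes were called (2.36% higher, 2.79% lower). It differed from epididymal fat in 8, 6 higher and 2 lower, where 10.4% were called (3.55% higher, 6.83% lower). Mesentery differed from epididymal fat in 7, 4 higher and 3 lower, where 4.18% were called (1.98% higher, 2.21% lower). The first of these counts was 3 without omentum mesothelial replicate 3. In omentum against mesentery, Mmp2 (2.19 ± 0.26) and Adamts15 (-1.38 ± 0.19, edgeR adjusted p = 9.32e-06) kept their calls without any single library.

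Across the fibroblasts of 9 tissues, 38 of the 40 genes differed in a test of any difference between tissues, where 44% of all genes did. The exceptions were Mmp17 and Mmp25, both membrane-anchored and under 4 CPM in every fibroblast library. Calls of Mmp14, Mmp15 and Mmp23 were close to the threshold, with ranges of 1.12, 1.34 and 1.01 on the log2 scale, and each was lost without certain single libraries. Mmp14, which activates pro-MMP2 at the cell surface, ran from 41.8 CPM in an omentum library to 119 CPM in a bone library. For each tissue the fibroblasts were then set against the mean of the other 8. These 9 comparisons share most of their libraries.

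**Figure D4:**
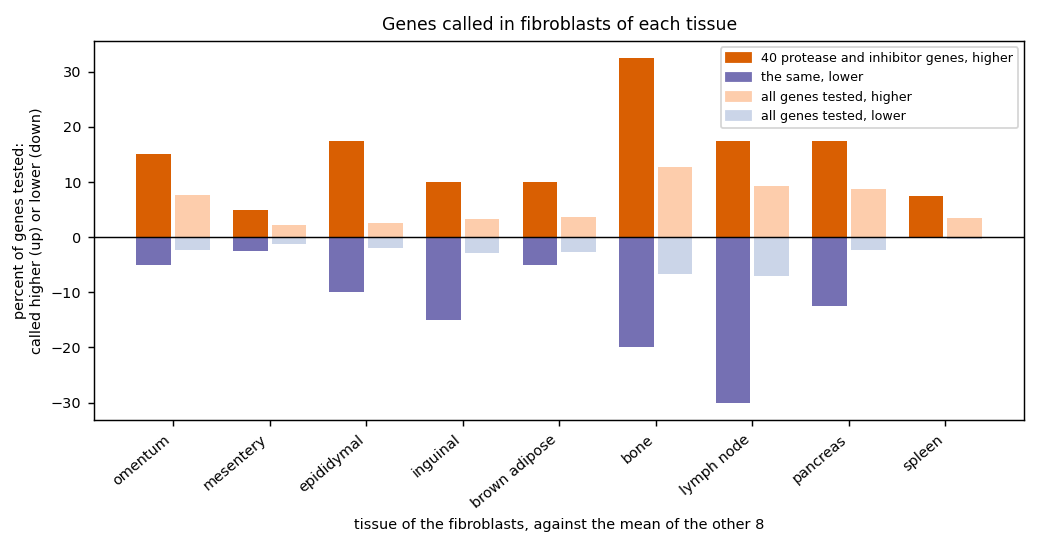
Percent of the 40 genes tested (dark bars) and of all 25705 genes tested (pale bars) called higher (up) or lower (down) in the fibroblasts of each tissue against the mean of the other 8. Bone and lymph node have the most genes called, 21 and 19 of 40, and mesentery and spleen the fewest, 3 each.

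Bone fibroblasts had 21 of 40 genes called, 13 higher and 8 lower, where 19.5% of all genes were called (12.8% higher, 6.65% lower). Mmp13, collagenase-3 (chr9:7272514-7283331, plus strand), read 2378, 1186 and 1935 CPM in bone. In the other 31 libraries together it had 19 reads, and 26 of these libraries had none, which gives 0.0177 CPM (exact Poisson 95% interval 0.0106 to 0.0276, counting error only). Against the 7 groups with no read, bone was at least 39766-fold to 66026-fold higher, taking 3 counts over each group as the floor. edgeR called Mmp13 in bone (adjusted p = 3.95e-20), and DESeq2 kept that call. In the separate test across all 9 tissues, the edgeR call was lost with DESeq2 (adjusted p = 0.155). Mmp16 read 156, 207 and 248 CPM in bone and 1.29 to 16.2 CPM in the other fibroblasts (5.13 ± 0.13, edgeR adjusted p = 7.2e-26). Mmp8, neutrophil collagenase, read 6.51, 14.4 and 16.9 CPM against at most 0.868 CPM (6.21 ± 0.39, edgeR adjusted p = 1.11e-16).

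Osteoblasts and hypertrophic chondrocytes are known sources of MMP13, and the osteoblast and chondrocyte markers given above were high in the same 3 libraries. Neutrophil markers were at 163 to 549 CPM there and at no more than 20.2 CPM in any other fibroblast library, with Ngp at 153 CPM. The part of these cells in the bone levels was not tested. The 7 osteoclast markers summed to 399 to 479.7 CPM in bone, mostly Ctsk, with Acp5 at 28 CPM and Dcstamp at 0.122 CPM, and to more in inguinal (844 to 1218 CPM) and brown adipose fibroblasts (693 to 749 CPM).

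Bone also had the highest Timp1, the inducible inhibitor, at 219, 219 and 192 CPM against 16.5 to 62.8 CPM in the other fibroblasts (2.73 ± 0.19, edgeR adjusted p = 2.97e-13), and Timp2 was lower there (-1.23 ± 0.17). Adamts17 read 14, 18.4 and 14.6 CPM in bone (3.39 ± 0.22, edgeR adjusted p = 1.56e-14). Mmp19, a secreted metalloproteinase, was lowest in bone, at 36.5, 21.7 and 20.8 CPM against 87.3 to 273 CPM in the other fibroblasts (-2.76 ± 0.18). Mmp3 was also low, at 46.7, 17.2 and 36 CPM (-3.73 ± 0.3). Of the neighbours on chromosome 9 shown above, Mmp13, Mmp8 and Mmp10 had their highest group mean in bone, Mmp10 at only 1.18 CPM. Mmp3 was lowest there among fibroblasts by group mean, and Mmp12 was highest in epididymal fibroblasts. Of 21 matrix substrates 10 were higher in bone and 4 lower, led by Acan (11.6 ± 0.26), Col1a2 (4.56 ± 0.11) and Comp (9.56 ± 0.3), genes of cartilage and bone matrix. Among the genes that activate or control matrix proteases 7 were higher and 1 lower, with Sparc at 2.51 ± 0.12.

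Lymph node fibroblasts had 19 of 40 genes called, 7 higher and 12 lower, where 16.4% of all genes were called (9.32% higher, 7.13% lower). The median over the 40 genes was -0.62, and -0.04 over all genes. Adamts13, the von Willebrand factor protease that is known from hepatic stellate cells, read 36.7, 29.6 and 28.7 CPM and at most 0.682 CPM in any other library (9.1 ± 0.27, edgeR adjusted p = 1.23e-32). Adamts20, a relative of Adamts9, read 13.5, 19.8 and 9.92 CPM and at most 1.4 CPM elsewhere (6 ± 0.27, edgeR adjusted p = 1.41e-21). Mmp9, the gelatinase B of leukocytes and stroma, read 91.4, 43.5 and 36.2 CPM and at most 17.5 CPM elsewhere (5.52 ± 0.45, edgeR adjusted p = 8.4e-11). None of these 3 genes overlapped between lymph node and other libraries. Neutrophil markers were low in these libraries (1.31 to 6.48 CPM summed, with Camp, Ltf and Ly6g at 0). The leukocyte sum given above (432 to 890.5 CPM, mostly Cd74 at 566 CPM) averaged the highest of the fibroblast groups, and mural markers were high, led by Abcc9 at 504 CPM and Rgs5 at 492 CPM. The part of leukocytes and mural cells was not tested.

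Mmp3 was high in lymph node too, at 1975, 990.5 and 2412 CPM (2.74 ± 0.18, edgeR adjusted p = 6.79e-14), and Adamts17 read 12.9, 10.9 and 11.1 CPM (2.9 ± 0.22). Among the lower genes, Adamts16 read 0.891, 2 and 1.42 CPM (-4.07 ± 0.37) and Adamts2 read 91.2, 102 and 190 CPM (-1.55 ± 0.17). Adamts19 had no read in any of the 3 libraries, so that mesentery fibroblasts, with 7.17, 6.09 and 8.16 CPM, were at least 228-fold higher. Timp3 (-1.15 ± 0.16) and Timp4 (-1.58 ± 0.49) were lower as well, the latter not called without lymph node replicate 3 (-1.43). Of 21 matrix substrates 2 were called higher and 10 lower, among the latter Vcan (-2.96 ± 0.17) and Nid1 (-2.32 ± 0.19), while Fmod was higher (3.17 ± 0.21). Of 16 inflammatory inducers 7 were higher and 1 lower, with Il1r1, the interleukin-1 receptor, at 1.85 ± 0.13 and Tnfaip3 at 2.95 ± 0.27.

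Mmp3 and Mmp2 were high in the fibroblasts of subcutaneous fat. Inguinal fibroblasts had 10 of 40 genes called, 4 higher and 6 lower, where 6.3% of all genes were called (3.35% higher, 2.96% lower). Brown adipose fibroblasts had 6, 4 higher and 2 lower, where 6.41% were called (3.66% higher, 2.75% lower). Mmp3 (chr9:7445822-7455975, plus strand) read 2350.3, 3419 and 2741 CPM in inguinal fibroblasts (3.49 ± 0.17, edgeR adjusted p = 8.47e-16) and 1606, 2127 and 1566 CPM in brown adipose fibroblasts (2.72 ± 0.18, edgeR adjusted p = 7.99e-13). The inguinal libraries lay above those of brown adipose tissue, and lymph node overlapped both ranges. Mmp2 read 1654, 2051 and 1900 CPM in inguinal and 1919, 1670.5 and 1475 CPM in brown adipose fibroblasts, overlapping each other and bone (1594, 1713 and 1800.1 CPM) and lying above the other tissues. Adamts12 was highest in inguinal fat at 126, 154 and 139 CPM (1.29 ± 0.21), a range that the highest epididymal library (126 CPM) touches, and Adamts16 read 56.2, 63.5 and 69.4 CPM in brown adipose tissue (2.05 ± 0.21, edgeR adjusted p = 7.28e-09). Mmp16 was lowest in inguinal fibroblasts, at 1.29, 1.34 and 2.65 CPM (-2.58 ± 0.23), overlapping epididymal fat (2.41, 2.67 and 2.38 CPM). The call of Mmp24 in brown adipose tissue (4.85 ± 0.74) rested on replicate 1, which read 6.47 CPM where the others read 0.0283 and 0.0279 CPM, and without it the value was -1.24 (edgeR adjusted p = 0.87).

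Fibroblasts of visceral fat (omentum, mesentery and epididymal) differed from those of subcutaneous fat (inguinal and brown adipose) in 11 of 40 genes, 6 higher and 5 lower, where 8.23% of all genes were called (4.29% higher, 3.94% lower). Mmp3 was lower in visceral fat (-3.82 ± 0.2, edgeR adjusted p = 1.3e-15), with 30.9 to 597 CPM over 9 libraries against 1566 to 3419 CPM over 6, and so was Mmp2 (-1.76 ± 0.14, edgeR adjusted p = 3.05e-11), with 269.8 to 831 CPM against 1475 to 2051 CPM. Neither gene overlapped. Adamts19, a gene of low level, was higher in visceral fat (3.95 ± 0.41, edgeR adjusted p = 7.98e-09), at 2.5 to 8.16 CPM against at most 0.632 CPM. Without inguinal replicate 2 the count was 7 genes. Of 21 proteases outside the 41 genes, 6 were called lower in visceral fat and none higher, led by Mme (neprilysin, -4.99 ± 0.2) and Dpp4 (-2.16 ± 0.14). Of the matrix substrates 1 was higher and 5 lower, with Col1a2 at -2.14 ± 0.13 and Col3a1 at -1.9 ± 0.16.

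Omentum fibroblasts had the highest levels of Adamts4 and Adamts1, whose enzymes cleave aggrecan and versican. They had 8 of 40 genes called, 6 higher and 2 lower, where 10% of all genes were called (7.64% higher, 2.38% lower). Adamts4 (chr1:171250421-171260637, plus strand) read 722, 878 and 1206 CPM in omentum and 7.5 to 254 CPM in the other fibroblasts (3.79 ± 0.34, edgeR adjusted p = 4.44e-09). Adamts1 (chr16:85793827-85803113, minus strand) read 981, 793 and 1249 CPM against 72.2 to 447 CPM (2.24 ± 0.21, edgeR adjusted p = 7.24e-10). Neither overlapped with another tissue. Adamts9 read 10.3, 10.5 and 11.4 CPM (1.57 ± 0.16, edgeR adjusted p = 4.29e-09), a range that bone libraries, at 9.61, 13.9 and 13.1 CPM, overlap and exceed. Adamts5, which lies 53.1 kb from Adamts1 on chromosome 16, was not called in omentum, where it read 211, 208 and 261 CPM. Mmp2 was lower in omentum (-1.46 ± 0.19, edgeR adjusted p = 5.19e-07), and lymph node libraries (293 to 374 CPM) overlapped it.

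Genes of inflammatory induction were higher in the same omentum libraries. Of 16 inflammatory inducers 12 were higher in omentum fibroblasts and none lower, with Il6 at 3.82 ± 0.28, Il1a at 5.61 ± 0.55, Cxcl2 at 4.38 ± 0.36 and Ptgs2 at 2.99 ± 0.27 (edgeR adjusted p = 2.61e-09), and the median of the list was 2.01 beside 0 for all genes. Of 11 AP-1 and early response genes 5 were higher and none lower, with Fosl2 at 2.25 ± 0.14 and Fosl1 at 3.26 ± 0.39. In the same libraries leukocyte markers summed to 324 to 497 CPM, mostly Cd74 (362 CPM), with Ptprc at 4.22 CPM, and acinar transcripts were present as given above. Against the other tissues 8 of 12 leukocyte markers, 9 of 12 macrophage markers and 11 of 14 mesothelial markers were called higher in omentum. Their part in these levels was not tested.

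Epididymal fibroblasts had 11 of 40 genes called, 7 higher and 4 lower, where 4.43% of all genes were called (2.5% higher, 1.93% lower). Adamts5 read 800.2, 784 and 908 CPM, above every other library (1.28 ± 0.15, edgeR adjusted p = 9.64e-08). Adamts15 read 117, 102 and 85.8 CPM (1.38 ± 0.13, edgeR adjusted p = 9.75e-10), which pancreas libraries at 95.5 and 73.6 CPM overlap. Adamts16 read 63.6, 92 and 58 CPM (2.25 ± 0.21, edgeR adjusted p = 1.1e-09), overlapping brown adipose tissue. Timp4, an inhibitor known from heart and fat, read 11.5, 4.99 and 4.76 CPM (2.78 ± 0.28, edgeR adjusted p = 1.12e-08) against at most 2.62 CPM in other fibroblasts, and epididymal mesothelial cells were the other group with a high level. Mmp3 was lower, at 53.3, 30.9 and 53.5 CPM (-3.21 ± 0.29, edgeR adjusted p = 1.16e-09). Mmp12, macrophage elastase, was called (6.56 ± 0.6) on uneven values of 2.97, 0.0297 and 16.9 CPM, while macrophage markers summed to 42 to 76.1 CPM in these libraries, with none of 12 called. In the same comparison 10 of 14 mesothelial markers (201 to 302 CPM summed) and 3 of 10 endothelial markers (384 to 517 CPM summed) were called higher in epididymal fibroblasts. The part of these cells was not tested.

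Few genes were called in the remaining tissues, apart from pancreas. Mesentery fibroblasts had 3 genes called, 2 higher and 1 lower, where 3.5% of all genes were called (2.19% higher, 1.31% lower). Of these Adamts19 (3.42 ± 0.35, edgeR adjusted p = 3.04e-08) reached 5 CPM, and the count was 1 without any of the 3 mesentery libraries. Spleen fibroblasts, with 2 libraries, had 3 genes called, all higher and all below 5 CPM (Adamts8, Adamts19 and Adamts20, with 3.88% of all genes called and 3.47% called higher), and each lost its call without either spleen library. Pancreas fibroblasts, also with 2 libraries, had 12 genes called, 7 higher and 5 lower, where 11% of all genes were called (8.65% higher, 2.31% lower). There Adamts8 read 6.57 and 4.86 CPM (2.71 ± 0.38, edgeR adjusted p = 1.72e-06), Adamts15 read 95.5 and 73.6 CPM (1.08 ± 0.15, edgeR adjusted p = 2.7e-06, not called at 0.88 without replicate 1) and Mmp3 read 108 and 77 CPM (-2.07 ± 0.32, edgeR adjusted p = 1.68e-05). Adamts16 read 47.9 and 44.6 CPM (1.55 ± 0.26). The pancreas count was 7 without replicate 1 and 6 without replicate 2, and acinar markers were the highest of all groups there, while leukocyte markers summed to 14.1 CPM in 1 pancreas library and 328 CPM in the other. The part of these cells was not tested. Of 11 AP-1 and early response genes 9 were lower in pancreas and none higher, with Fos at -3.85 ± 0.33 and Egr1 at -2.19 ± 0.28, and of 16 inflammatory inducers 7 were lower and none higher.

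**Figure D5:**
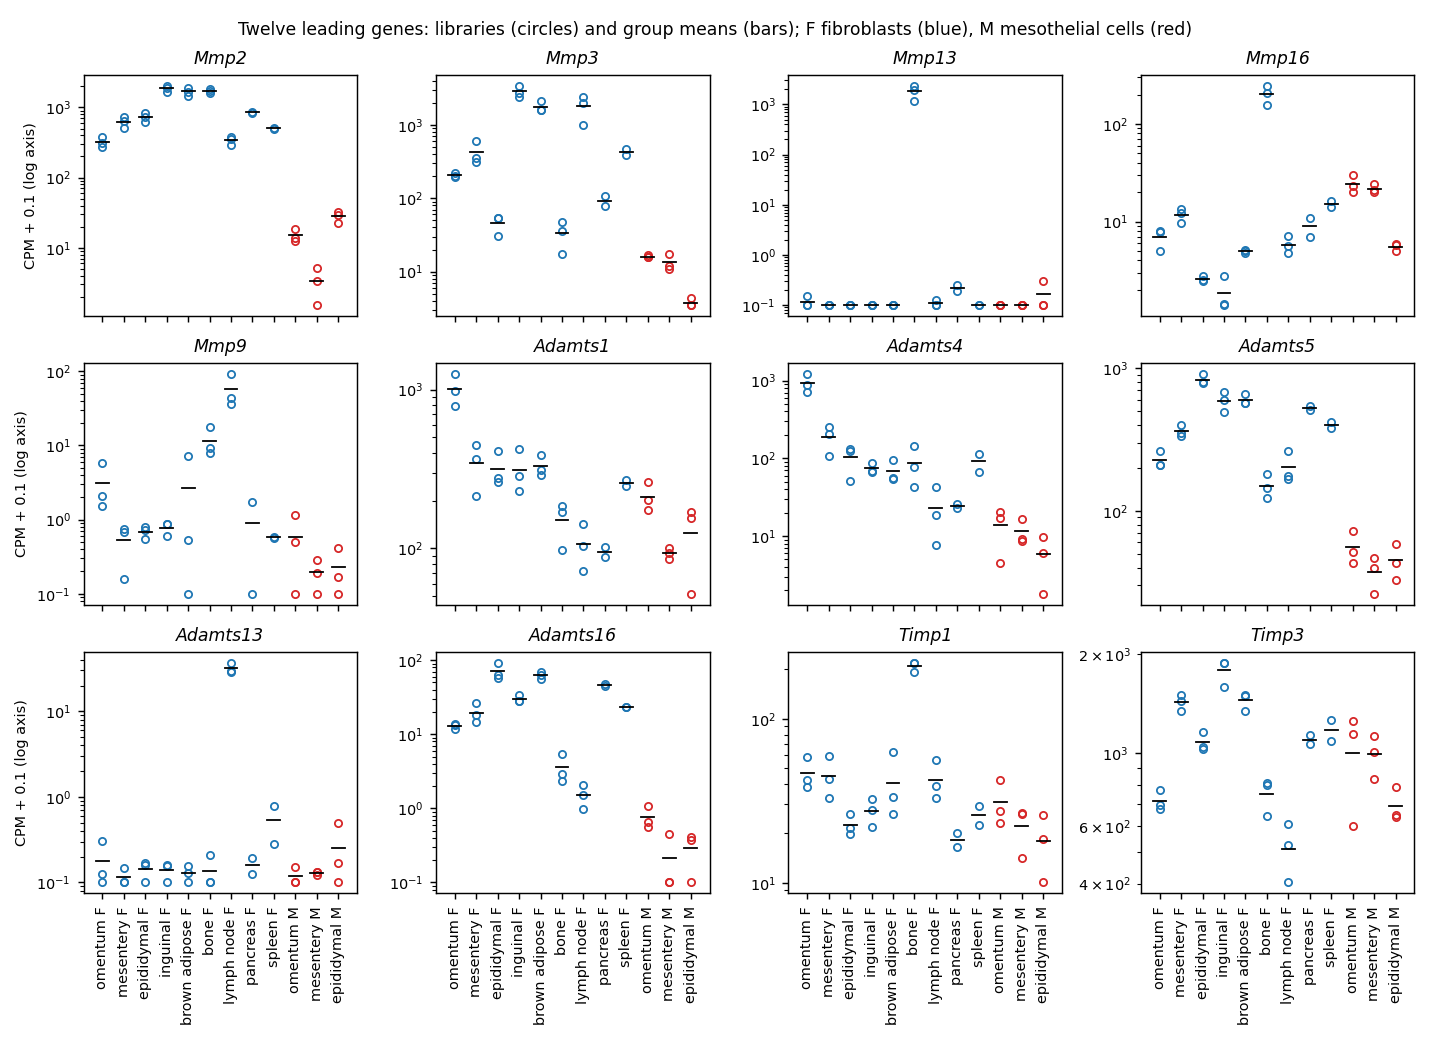
CPM + 0.1 on a log axis for 12 genes by group. Circles are libraries and bars group means; blue F marks fibroblasts and red M mesothelial cells. Mmp13 is high in bone, Adamts13 and Mmp9 in lymph node, Adamts1 and Adamts4 in omentum fibroblasts, and Mmp2, Mmp3, Adamts5 and Adamts16 are lower in all 9 mesothelial libraries than in the fibroblasts of the same 3 depots.

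The inhibitors were expressed in all 34 libraries. Timp3, the matrix-bound inhibitor, ran from 403 CPM in a lymph node library to 1886 CPM in an inguinal library, and Timp2, which also takes part in the activation of pro-MMP2, from 224 CPM in bone to 976 CPM in brown adipose tissue. Mesothelial cells lay within these ranges for both genes, at 598 to 1249 CPM for Timp3 and 307 to 926 CPM for Timp2. Timp1 lay between 9.94 and 62.8 CPM in every library outside bone. Timp4 was under 3 CPM outside epididymal fat. Mmp23, a membrane-anchored enzyme of unusual structure, had 74.9 to 249 CPM in all libraries and was not called between mesothelial cells and fibroblasts in any depot.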

How the data were processed

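The deposited values are raw counts per gene, described by the authors as reads uniquely aligning to the gene model, per the file headers. Salmon and build GRCm38 are named per the submitters' processing notes. The annotation release, the filters and whether counting used strand are not given in the sources used here. Each library has its own count table of 51826 genes.

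Counts were analysed in R 4.3.3 with edgeR 4.0.16: filterByExpr with a minimum count of 10, TMM scaling, and 1 quasi-likelihood fit over all 34 libraries with 1 coefficient per group. Benjamini-Hochberg adjustment ran over the 25705 genes tested, and a gene was called at an adjusted p under 0.05 with a log2 fold change of at least 1 in size. Tests over several groups give the range of the group effects. Genes whose libraries do not overlap between groups were not counted over all genes. Standard errors are from the same fit. The procedure was tested on simulated data. Exon lengths are from GENCODE on GRCm38, and marker sums use unscaled CPM.

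Groups came from the sample titles and labels. Members, lists and tests were chosen with earlier results of these data known. Per-library values are given for the 3 genes of each class with the highest mean CPM and, in each comparison, for up to 6 called genes by smallest adjusted p whose higher side averaged at least 5 CPM; others are given by counts and ranges or named to account for a count, after their values were seen. Genes outside the 41 come from the lists, up to 4 per list and comparison by smallest adjusted p. Alternatives were DESeq2 1.42.0 with its own size factors, another normalization in edgeR, no low-count filter, a replicate block, fits of the compared groups alone, leaving out each library in turn, and leaving out the 11 libraries with at least 1000 CPM of acinar markers.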

Additional observations from a re-analysis of the deposited data

Results flagged for a closer look

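For 12 genes the difference between mesothelial cells and fibroblasts itself differed between omentum, mesentery and epididymal fat, in edgeR's quasi-likelihood interaction test with Benjamini-Hochberg adjustment over all genes. Values below are log2 fold changes of mesothelial cells minus fibroblasts with standard errors, in the order omentum, mesentery, epididymal fat, followed by their range. Mmp2 (gelatinase A) stood at -4.42 ± 0.26, -7.58 ± 0.31 and -4.69 ± 0.26, a range of 3.16. Adamts15 stood at -2.38 ± 0.2, -0.24 ± 0.19 and -2.7 ± 0.2, a range of 2.45. For Adamts9 the values were 0.2 ± 0.23, 1.58 ± 0.26 and 3.31 ± 0.27, a range of 3.11. For Adamts5 they were -2.02 ± 0.23, -3.27 ± 0.24 and -4.21 ± 0.25, a range of 2.19. These 4 had the smallest adjusted p, from 4.43e-08 to 2.53e-05.

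Adamts16 followed with -4.26 ± 0.44, -7.49 ± 0.57 and -8.41 ± 0.52 (range 4.14), and Adamts12 with -3.39 ± 0.34, -5.38 ± 0.39 and -5.54 ± 0.38 (range 2.15). Mmp19 stood at -0.75 ± 0.19, -1.21 ± 0.19 and -2.17 ± 0.2 (range 1.43). Adamts8, at most 5.87 CPM in these cells, stood at 2.23 ± 0.5, 0.93 ± 0.53 and -1.23 ± 0.61 (range 3.46). Its values in mesentery and in epididymal fat were not called on their own, so a change of sign was not established. Timp3 stood at 0.49 ± 0.19, -0.53 ± 0.19 and -0.64 ± 0.19 (range 1.13).

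The remaining 3 were near the threshold in edgeR's test. Mmp11 stood at -1.58 ± 0.26, -1.93 ± 0.26 and -2.89 ± 0.27 (range 1.3, adjusted p = 0.0305) and Mmp3 at -3.69 ± 0.33, -4.99 ± 0.35 and -3.63 ± 0.34 (range 1.35, adjusted p = 0.0443). Mmp28 stood at 1.4 ± 0.47, 4.41 ± 0.89 and 4.38 ± 0.83 (range 3.01, adjusted p = 0.0451). Their calls were lost without any of 6, 15 and 13 single libraries.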

How the results depend on the processing

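Over 20 comparisons the 41 genes gave 265 calls. DESeq2 lost 8 of them, another edgeR scaling (RLE) 1, no low-count filter 4, and fits of the compared groups alone 13 of the 263 that could be refitted. Leaving out the 11 libraries rich in acinar RNA keeps 1 mesothelial and 1 fibroblast library of mesentery, which are assumed to vary like the other groups. A call lost there cannot tell a smaller difference from fewer libraries, so effect sizes are given. Among the lost calls, only Timp1 in mesentery (-0.41) and Mmp16 in epididymal fat (0.99) fell below a log2 size of 1. The latter compares no mesentery library. This setting could not be run where omentum or pancreas fibroblasts enter. None of these changed a direction. For spleen fibroblasts the count of 3 became 1 with DESeq2 and 6 without the filter, and for mesentery fibroblasts the count of 3 became 6 without the filter. The causes were not tested. Leaving out 1 library at a time, 210 of 265 calls held every time. Counts then ran from 3 to 7 for omentum against mesentery mesothelial cells (3 without omentum mesothelial replicate 3), from 1 to 4 for mesentery, from 6 to 13 for pancreas (7 and 6 without its replicates 1 and 2), from 1 to 5 for spleen (1 without spleen replicate 2, 5 without brown adipose replicate 1 or epididymal mesothelial replicate 2 or 3) and from 7 to 12 for visceral against subcutaneous fat (7 without inguinal replicate 2). Mmp24 in brown adipose fibroblasts ran from -1.24 to 5.43, and was reversed without brown adipose replicate 1.

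Same-numbered mesothelial and fibroblast libraries did not deviate together in every depot (correlation -0.25 to 0.23 over 9 pairs), so the numbers were not read as pairs. In omentum and mesentery the correlations were -0.25 to -0.02. In epididymal fat they were 0.03, 0.23 and 0.23, where libraries of different number had -0.24 to 0.09. A fit with the replicate number as a block lost 3 calls: Adamts18 across mesothelial depots (4.18, edgeR adjusted p = 0.051), Mmp23 across fibroblasts (0.99) and Timp4 in pancreas (1.08, edgeR adjusted p = 0.0635). Depth limits the low genes: on unscaled totals, a gene at 1 CPM has about 28.7 to 42.3 reads in a library. The TMM factors, from 0.791 to 1.27, shift these numbers for CPM on scaled totals.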
